A study of Mus musculus with 6 samples.

Results

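The tubulins and microtubule-associated proteins described here were 10 mouse genes, the alpha-tubulins Tuba1a, Tuba4a and Tuba8, the beta-tubulins Tubb2a, Tubb2b, Tubb5 and Tubb6, and the microtubule-binding proteins Map4, Gas2l3 and Jpt1 (formerly Hn1). Every probe set that the platform annotation assigned to exactly 1 of these genes was taken, which gave 24 of 45037 probe sets. The annotation names 18193 genes in this way, of which these are 10. Another 2 probe sets listed a member together with a second gene and were not used. The genes were chosen by function and partly on measured values, namely the higher Gas2l3 and Jpt1 signals of the hAT1R transgenic arrays, so the differences between the groups are given below as a description of the members, and counts of calls among them are printed only beside the share over all probe sets.

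RNA from mouse heart tissue was measured on 6 Affymetrix Mouse430_2 arrays, 3 from hAT1R transgenic mice and 3 from non-transgenic mice. Both groups were C57BL/6 animals, and the first carried a transgene for hAT1R, the human type 1 receptor for angiotensin II. The series text states that the hearts were matched for age and gender, and the sources used here give neither the promoter and cell type that drive the transgene, nor the age of the mice, nor whether animals were pooled. The arrays were not said to come from separate animals. The p-values below set each group difference against the spread within the groups, part of which may therefore be technical. With 3 arrays a group the precision is limited.

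The labels had a weakness that touches every sign below. In the scanner's records, the free-text name of all 3 arrays titled transgenic read "control", and that of all 3 arrays titled non-transgenic read "transgene". Groups follow the titles, hence "labelled transgenic", and swapping them would turn each sign. Xist was at log2 9.48, 2.58 and 9.48 on the labelled transgenic arrays and at 2.49, 9.69 and 3.01 on the others, so it was high on 2 of 3 labelled transgenic arrays and on 1 of 3 others. The sexes were thus not balanced between the groups, and neither group was made up of repeats of a single animal. Fluidics station 2 washed all labelled transgenic arrays and 1 non-transgenic array, replicate 1, and station 3 washed non-transgenic replicates 2 and 3. The labelled transgenic arrays were also the first 3 scanned, so the order of scanning and the group cannot be told apart. All cardiomyocyte markers fixed for the check, 10 of 10, were above the brightness filter, with a median difference of -0.02 and summed linear signals of 380350 to 384853 against 385086 to 393404.

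Microtubules are hollow polymers of alpha- and beta-tubulin dimers. Each tubulin class is encoded by several genes, called isotypes, whose proteins differ mainly in the tail that faces the cytoplasm. In heart muscle cells the microtubule network carries cargo, resists shortening of the sarcomere and becomes denser and more stable in hypertrophy, and Map4 is the main structural protein that binds along its lattice there. Loss of the last tyrosine of alpha-tubulin marks long-lived microtubules, and a ligase restores it on free tubulin. Tuba4a is made without that tyrosine.

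All values are log2 signals after GCRMA, and a probe set was kept for the fit where its mean over the 6 arrays exceeded 3.29, the median over all probe sets. Of the 24 member probe sets, 22 were kept, and each of the 10 genes had at least 1. In the labelled transgenic hearts Jpt1 was higher on all 3 probe sets and Gas2l3 on 2 of 3, with its brightest probe set overlapping between the groups. The tubulins split between higher (Tuba1a, Tubb2a) and lower (Tuba8 on both probe sets, Tuba4a on 2 of 3 and Tubb6 on 1 of 2). The probe sets of Tubb5 and Tubb2b overlapped between the groups. Map4 was higher on 2 of its 4 kept probe sets. Limma's fit over all 22518 probe sets kept called 0.218% of them (0.178% upward and 0.04% downward) at a threshold of 0.05 on the adjusted p. Of the 22 member probe sets 2 were called, 1 of Gas2l3 and 1 of Jpt1, and since these genes were picked for this contrast nothing is read from the count.

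**Figure D1:**
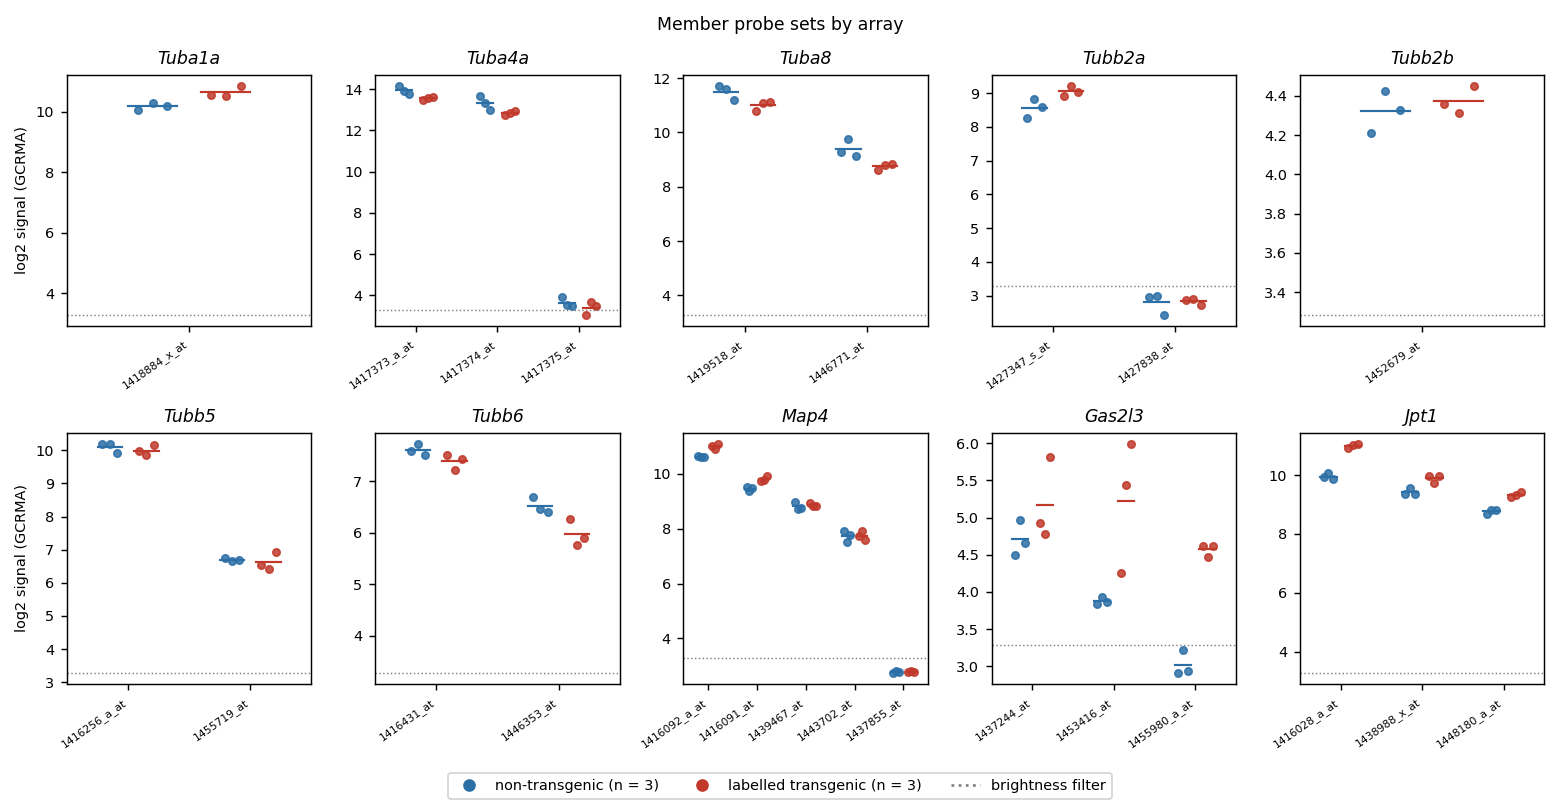
Log2 GCRMA signal (y axis) of each member probe set (x axis) on the 3 non-transgenic (blue) and 3 labelled transgenic (red) arrays, with group means as short lines and the brightness filter dotted. The y axes differ between panels. All 3 Jpt1 probe sets and 2 of 3 Gas2l3 probe sets lie higher in red without overlap, both Tuba8 and 2 of 3 Tuba4a probe sets lie higher in blue, and those of Tubb5 and Tubb2b overlap.

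Gas2l3, a protein that links actin filaments to microtubules and serves in the last step of cell division, was measured by 3 probe sets. Probe set 1455980_a_at was at 4.62, 4.47 and 4.62 on the labelled transgenic arrays and at 2.91, 3.22 and 2.94 on the non-transgenic ones. The groups were separated by 1.25, and all 3 non-transgenic values lay under the brightness filter. The fitted difference was 1.55 ± 0.11 (moderated SE, as in all differences below). The probe set passed the filter through the labelled transgenic group, and because the lower mean of 3.02 lies under the filter, where signal is near background, the size is given as at least 2.44-fold, measured from the filter.

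Probe set 1453416_at of Gas2l3 was at 4.26, 5.44 and 5.99 against 3.84, 3.93 and 3.87. The labelled transgenic arrays all lay above but were widely spread, with an SD of 0.88 against 0.05, and the difference was 1.35 ± 0.42. The brightest probe set, 1437244_at, was at 4.93, 4.78 and 5.82 against 4.50, 4.97 and 4.66. Here the groups overlapped and array 3 stood out, with a difference of 0.46 ± 0.29 that became 0.14 without that array.

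As background for Gas2l3, whose known expression is highest in dividing cells, 20 genes of mitotic cells were looked at. Of these, 1 was not analysed here, 17 lay below the brightness filter, among them Mki67, Top2a and Cdk1, and Cdc20 and Aurkb were kept. Cdc20, an activator of the anaphase-promoting complex, was at 3.77 ± 0.12 (SD, n = 3) against 3.93 ± 0.62 (limma, adjusted p = 0.839). Aurkb, a mitotic kinase, was at 3.39 ± 0.01 against 3.40 ± 0.03 (adjusted p = 0.946). Aurkb thus lay just above the filter of 3.29 and Cdc20 was also dim, so a change could go unseen in both. The summed linear signal of the list ranged from 137 to 143 on the labelled transgenic arrays and from 130 to 156 on the others. This sum includes the 17 genes below the filter, where signal is near background, so a change in dividing cells could go unseen in it.

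Jpt1, a small protein named after the Jupiter microtubule-binding protein of flies, was higher on all 3 of its probe sets. Probe set 1416028_a_at was at 10.92, 11.01 and 11.05 on the labelled transgenic arrays and at 9.94, 10.06 and 9.85 on the others. The groups were separated by 0.86, and the difference was 1.04 ± 0.08, or 2.06-fold. Probe set 1448180_a_at was at 9.27, 9.32 and 9.42 against 8.67, 8.82 and 8.80, a difference of 0.57 ± 0.08. Probe set 1438988_x_at was at 9.96, 9.73 and 9.96 against 9.34, 9.55 and 9.36, a difference of 0.47 ± 0.10. All 3 separated the groups, but by Affymetrix's naming the suffix _x marks probes that may bind other transcripts as well, and the size of the difference varied from 0.47 to 1.04.

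The upstream regions of Gas2l3 and Jpt1, the members with the largest differences, are shown with those of Tuba4a and Tuba8, the alpha-tubulins on the lower side. RefSeq promoter entries of build GRCm38.p6 matched 8 of the 10 members. Each sequence is the 250 bases before the annotated start, 5′ to 3′ on the gene's strand, and capitals mark the motifs searched on both strands.
Gas2l3, chr10:89443968-89444217, minus strand: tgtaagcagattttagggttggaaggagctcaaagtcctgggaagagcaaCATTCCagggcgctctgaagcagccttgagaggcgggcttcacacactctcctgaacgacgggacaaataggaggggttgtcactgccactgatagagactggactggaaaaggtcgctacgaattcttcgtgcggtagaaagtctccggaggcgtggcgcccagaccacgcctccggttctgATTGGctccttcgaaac
Jpt1, chr11:115514394-115514643, minus strand: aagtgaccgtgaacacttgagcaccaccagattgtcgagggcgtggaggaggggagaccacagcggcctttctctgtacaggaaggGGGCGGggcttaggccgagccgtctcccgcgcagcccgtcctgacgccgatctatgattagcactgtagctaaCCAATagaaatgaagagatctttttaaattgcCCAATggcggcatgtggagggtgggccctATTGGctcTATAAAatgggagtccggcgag
Tuba4a, chr1:75219295-75219544, minus strand: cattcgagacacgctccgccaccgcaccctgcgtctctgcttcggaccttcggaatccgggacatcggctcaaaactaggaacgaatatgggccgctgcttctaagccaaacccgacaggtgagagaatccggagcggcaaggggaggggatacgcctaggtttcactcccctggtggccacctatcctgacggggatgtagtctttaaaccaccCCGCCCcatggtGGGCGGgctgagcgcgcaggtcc
Tuba8, chr6:121210484-121210733, plus strand: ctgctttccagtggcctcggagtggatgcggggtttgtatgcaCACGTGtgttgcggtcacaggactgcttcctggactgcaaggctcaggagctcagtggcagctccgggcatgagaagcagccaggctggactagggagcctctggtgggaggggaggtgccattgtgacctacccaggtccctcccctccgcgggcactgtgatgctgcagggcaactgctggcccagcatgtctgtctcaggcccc

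The motifs were the TATA box (TATAAA), the CCAAT box (CCAAT), the GC box (GGGCGG), the MCAT element (CATTCC), the CHR element of cell-cycle genes (TTTGAA), the E-box CACGTG and the CArG box, and none of their matches in these windows overlapped. The Gas2l3 window held 1 MCAT element, starting at -200 from the gene start, and 1 CCAAT box in reverse at -17. The Jpt1 window held 3 CCAAT boxes, a TATA box starting at -22 and a GC box at -164. The Tuba4a window held 2 GC boxes, and the Tuba8 window 1 E-box. Over 32851 upstream windows of the same length, 12.4% held the TATA box, 33.8% the CCAAT box, 32.7% the GC box and 12.6% the MCAT element. The CHR element was in 16%, the E-box in 6.02% and the CArG box in 1.47%. The windows of Gas2l3 and Jpt1 shared the CCAAT box alone among these motifs, and the 2 alpha-tubulin windows shared none. These matches describe the sequence and are not shown to be bound.

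Among the alpha-tubulins, Tuba1a, a widely expressed isotype best known from growing neurons, had 1 usable probe set. It was at 10.58, 10.51 and 10.86 on the labelled transgenic arrays and at 10.06, 10.29 and 10.20 on the non-transgenic arrays. The groups did not overlap, with a difference of 0.47 ± 0.12, or 1.38-fold. The probe set is 1418884_x_at, whose suffix marks possible binding to related transcripts, and Tuba1a has near-identical relatives, so its signal cannot be assigned to this gene with certainty.

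Tuba4a was lower in the labelled transgenic hearts. Probe set 1417373_a_at was at 13.49, 13.56 and 13.63 against 14.16, 13.93 and 13.79. All 3 labelled transgenic values lay below, by 0.16 at the closest, and the difference was -0.40 ± 0.11. Probe set 1417374_at was at 12.73, 12.84 and 12.93 against 13.67, 13.33 and 12.98. Here the groups were apart by 0.05, and the difference of -0.49 ± 0.18 was -0.32 without non-transgenic array 1. The dim probe set 1417375_at overlapped between the groups, with a difference of -0.22 ± 0.19 that was -0.05 when labelled transgenic array 1 was left out and -0.09 when non-transgenic array 1 was.

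Tuba8, an isotype of heart, skeletal muscle and testis, was lower on both of its probe sets. Probe set 1419518_at was at 10.80, 11.07 and 11.14 against 11.71, 11.61 and 11.20, a difference of -0.51 ± 0.16. Probe set 1446771_at was at 8.62, 8.82 and 8.82 against 9.28, 9.76 and 9.12, a difference of -0.63 ± 0.17. Neither overlapped between the groups, although the gap for 1419518_at was 0.06.

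Among the beta-tubulins, Tubb2a was higher on its kept probe set 1427347_s_at, at 8.93, 9.21 and 9.05 against 8.27, 8.81 and 8.59. The groups did not overlap, and the difference was 0.50 ± 0.15, or 1.42-fold. The suffix _s marks a probe set shared by more than 1 transcript or gene, and the other Tubb2a probe set lay below the filter at 2.84 against 2.80. Tubb2b, its close paralog, was at 4.36, 4.31 and 4.45 against 4.21, 4.43 and 4.33, which overlapped with a difference of 0.05 ± 0.08.

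Tubb5, the beta-tubulin that most cells express, was at 9.96, 9.86 and 10.14 against 10.18, 10.18 and 9.93 on probe set 1416256_a_at. The groups overlapped there and on probe set 1455719_at, with differences of -0.11 ± 0.11 and -0.07 ± 0.14. Tubb6, an isotype that mouse muscle raises during regeneration, was lower on probe set 1446353_at, at 6.28, 5.77 and 5.91 against 6.69, 6.46 and 6.41. That difference was -0.53 ± 0.15 with no overlap. On the brighter Tubb6 probe set 1416431_at the values were 7.51, 7.23 and 7.44 against 7.60, 7.72 and 7.50, which overlapped at 1 array of each group, with a difference of -0.22 ± 0.10 that was -0.14 without labelled transgenic array 2.

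Map4 was measured by 5 probe sets, of which 1437855_at lay below the filter at 2.79 in both groups. Probe set 1416092_a_at was at 11.01, 10.90 and 11.08 against 10.63, 10.62 and 10.62, and 1416091_at at 9.72, 9.79 and 9.90 against 9.52, 9.38 and 9.47. Both were higher without overlap, with differences of 0.37 ± 0.07 and 0.34 ± 0.08. The other kept probe sets, 1439467_at and 1443702_at, overlapped, with differences of 0.07 ± 0.09 and 0.01 ± 0.14. The mean of all 4 kept probe sets gave 0.20. Probe sets of a gene can measure different transcripts of it, and which transcripts these 4 measure is not stated in the sources used here.

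**Figure D2:**
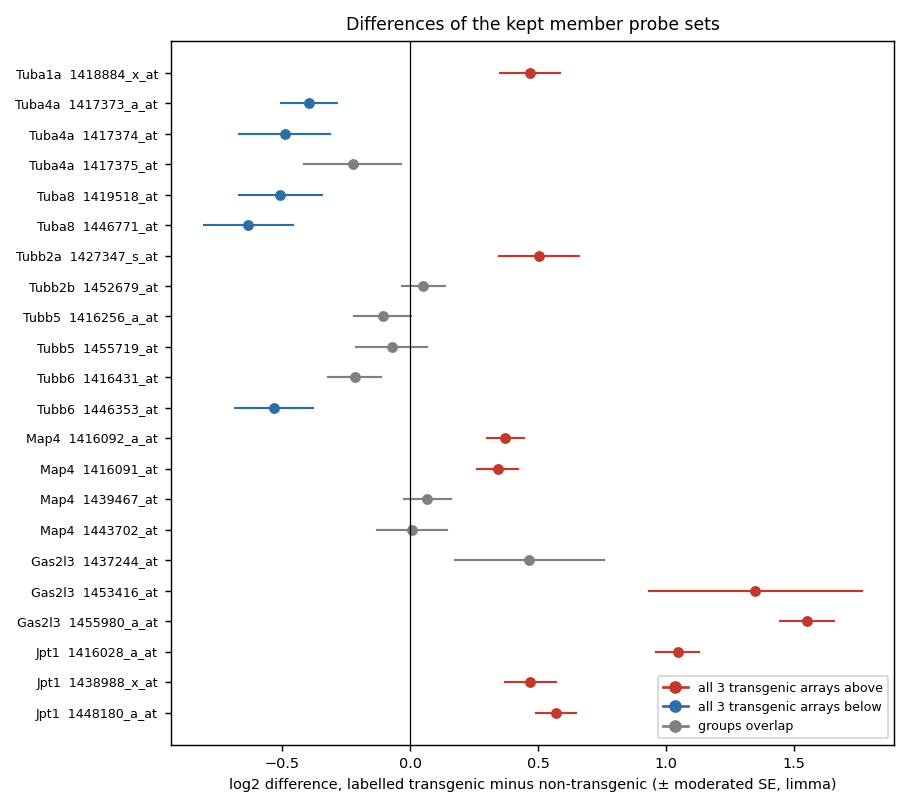
Log2 difference, labelled transgenic minus non-transgenic (x axis), of the 22 kept member probe sets (y axis), with bars of 1 moderated SE. Red marks probe sets whose 3 labelled transgenic arrays all lay above the others (9), blue those where all lay below (5), and grey overlap (8).

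Together, 9 of the 22 kept member probe sets separated the groups upward and 5 downward, where 13.2% and 9.78% of all probe sets kept did so, 23% in all. Of the 16 tubulin and Map4 probe sets, 4 separated the groups upward and 5 downward. None of these 16 was called by limma, and 9 had an unadjusted p under 0.05, as did 16.4% of all probe sets kept. The contrast was the same as the one used in choosing the genes, so nothing is read from these shares.

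Ratios of isotypes on the same array do not change when the whole array is scaled by a single factor. A normalization that acts differently at different signal levels can still change them. The log2 ratio of Tuba1a to Tuba4a, by the brightest probe set of each, was -2.92, -3.05 and -2.77 on the labelled transgenic arrays and -4.10, -3.64 and -3.59 on the others. It was higher by 0.86, with the groups 0.54 apart. That of Tuba1a to Tuba8 was -0.35 ± 0.18 (SD, n = 3) against -1.33 ± 0.33, higher by 0.97 with no overlap. The ratio of Tubb2a to Tubb6 was 1.42, 1.98 and 1.61 against 0.67, 1.09 and 1.09, higher by 0.72. These 3 ratios separated the groups, whereas the ratio of Tuba4a to Tuba8 overlapped, from 2.49 to 2.69 against 2.32 to 2.59. For each of the 3 ratios that separated the groups, the separation had to follow from the values above. Tuba1a lay higher and the brightest Tuba4a and Tuba8 probe sets lower, each without overlap. Tubb2a lay higher with a gap of 0.11, and the brightest Tubb6 probe set overlapped by less than that gap. None of the 3 ratios therefore adds separate support. A ratio of different probe sets gives no ratio of RNA amounts, so the change between the groups is what can be compared.

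**Figure D3:**
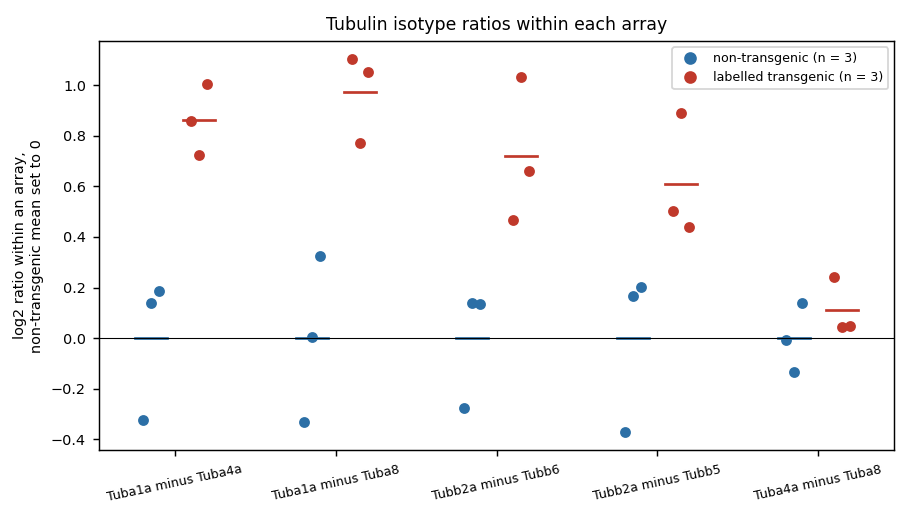
Log2 ratio of pairs of tubulin isotypes within each array (y axis, shifted so that the non-transgenic mean of each pair is 0) for 5 pairs (x axis). Points are arrays and lines are group means. The labelled transgenic arrays lie above the others for the first 4 pairs, and the groups overlap for Tuba4a to Tuba8.

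The fluidics station differed between the groups, and its part in these differences was not tested apart from the fit with station as a block. In that fit, equal to the values within station 2 because station 3 held non-transgenic arrays alone, the Gas2l3 probe set 1455980_a_at, with its lower group under the filter, was at 1.66 and the Jpt1 probe set 1416028_a_at at 1.06. Tuba1a was at 0.59 and Tubb2a at 0.79, and the brightest probe sets of Tuba4a, Tuba8, Tubb6 and Map4 were at -0.59, -0.71, -0.20 and 0.36. These rest on a single non-transgenic array. Neither member probe set called without the block was called with it.

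The other genes of the pathway were taken from lists drawn up by the genes' known roles in the pathway, with earlier results of these data known. Of 126 genes in 6 lists, 117 had a probe set of their own, 96 were kept and 9 were not analysed here. None of the 96 passed in limma's fit, in either direction, against 0.227% of all 11016 genes kept. At an unadjusted p under 0.05 there were 19 higher and 6 lower among the 96, where 10.4% and 7.76% of all genes were, 18.2% in all. Their median difference was 0.08, beside 0.01 over all genes.

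Among the other tubulins 3 of 13 were kept. Tubb4b, a broadly expressed beta-tubulin, was at 11.30, 11.46 and 11.41 against 11.96, 11.95 and 11.57, a difference of -0.44 ± 0.13 that did not pass (adjusted p = 0.183). Tubg1, the gamma-tubulin that starts new microtubules, was at 8.03, 7.92 and 8.11 against 8.39, 8.32 and 8.13, a difference of -0.26 ± 0.10 (adjusted p = 0.265). Both separated the groups. The neuronal isotype Tubb3 and 5 more tubulins lay below the filter.

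Of the 21 folding factors, which help tubulin and actin reach their shape, all were kept and 17 had a positive difference, as did 52.4% of all genes kept, with a median of 0.10. Pfdn1, a prefoldin subunit, was at 10.31 ± 0.05 (SD, n = 3) against 9.96 ± 0.10, a difference of 0.36 ± 0.08 (adjusted p = 0.124). Tbcb, a tubulin-folding cofactor, differed by 0.32 ± 0.08 (adjusted p = 0.152). The arrays of each separated the groups, and neither passed.

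Enzymes that modify tubulin had 16 kept genes and a median of -0.02, with 7 positive and 9 negative differences. Ttll1, a polyglutamylase subunit, was at 10.95 ± 0.29 against 11.52 ± 0.17, a difference of -0.57 ± 0.17 (adjusted p = 0.192). Ttll7, a polyglutamylase, was at 6.50 ± 0.29 against 5.94 ± 0.43, a difference of 0.56 ± 0.25 with overlapping groups (adjusted p = 0.334). Ttl, the ligase that restores the last tyrosine of alpha-tubulin, was chosen for mention with its values known and had a difference of 0.35 ± 0.10 (adjusted p = 0.180) and other probe sets from 0.06 to 0.42.

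Proteins that bind the lattice or the ends of microtubules had 25 kept genes, with a median of 0.07 and 15 positive differences. Mapt, the tau protein, was at 9.89, 10.07 and 10.37 against 9.18, 9.46 and 9.40. The groups did not overlap, and the difference of 0.76 ± 0.15 did not pass (adjusted p = 0.0982), with its other 3 probe sets between 0.61 and 0.82. Map6, a protein that protects microtubules from cold, differed by 0.56 ± 0.28 with overlap (adjusted p = 0.394).

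Destabilising and severing proteins and the kinases that release lattice-binding proteins had 12 kept genes, with a median of 0.06. Mark1, one of those kinases, was at 3.91, 4.15 and 4.45 against 5.54, 5.02 and 5.07. The difference was -1.05 ± 0.19 and separated the groups without passing (adjusted p = 0.0891), and its other probe sets ran from -0.84 to -0.60. Fign, a severing enzyme, was at 5.76 ± 0.23 against 6.41 ± 0.43, a difference of -0.65 ± 0.24 with overlapping groups (adjusted p = 0.260). Its other probe set was at -0.31.

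The kinesin and dynein motors, which walk along microtubules, had 19 kept genes and the highest median of the 6 lists, 0.17, with 15 positive differences and none called. At an unadjusted p under 0.05 there were 7 higher and 0 lower motor genes, 4 and 0 folding factors, 1 and 1 modifying enzymes, 4 and 1 lattice or end binding proteins, 3 and 2 of the destabilising list and 0 and 2 other tubulins, beside 10.4% and 7.76% of all genes. Dynll1, a dynein light chain, was at 11.32, 11.69 and 11.51 against 10.50, 11.14 and 11.07, a difference of 0.60 ± 0.19 (adjusted p = 0.222). Dync1li1, a dynein light intermediate chain, differed by 0.45 ± 0.12 (adjusted p = 0.159). Both separated the groups.

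**Figure D4:**
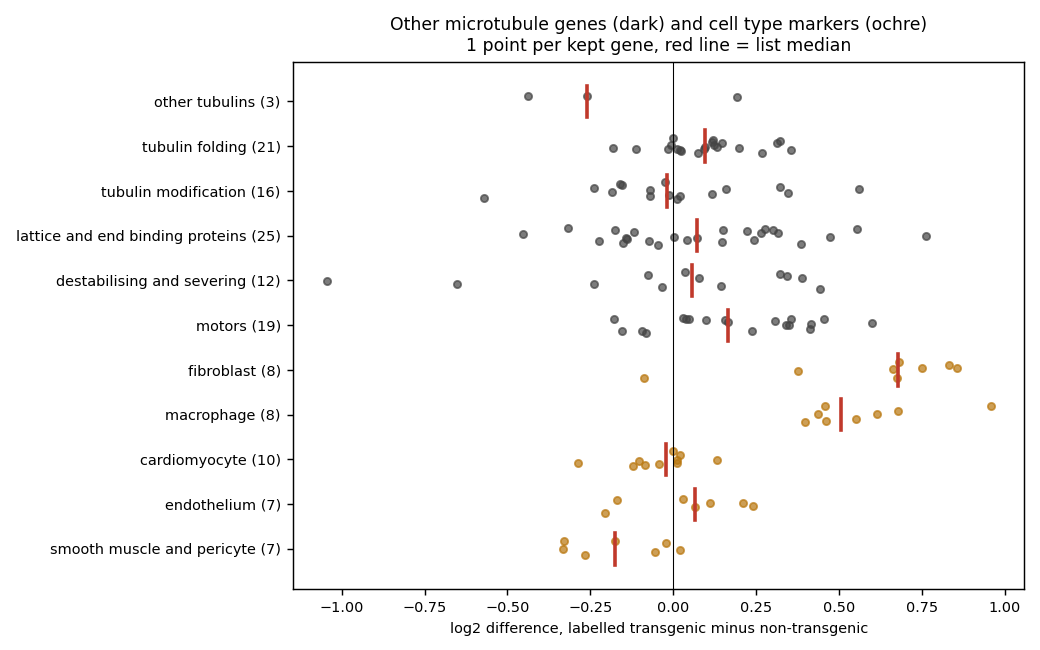
Log2 difference, labelled transgenic minus non-transgenic (x axis), of each kept gene in the 6 lists of other microtubule genes (dark) and 5 lists of cell type markers (ochre), with list medians in red and the number of genes in brackets. The microtubule lists have medians between -0.26 and 0.17, and the fibroblast and macrophage markers lie at 0.68 and 0.51.

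Markers of other heart cell types were set beside these genes, and none of those kept passed in limma. In whole tissue, a change in the number of cells of a type and a change in RNA per cell cannot be told apart. Of 8 fibroblast markers, all kept, 7 had a positive difference, with a median of 0.68 and a summed linear signal of 16635 to 19549 against 12799 to 13822. Lum was at 0.86 ± 0.23 and Col1a1 at 0.83 ± 0.29 (adjusted p = 0.163 and 0.251, limma). Of 8 macrophage markers, all kept, 8 were positive, with a median of 0.51 and a summed signal of 6930 to 8218 against 5196 to 5656. Cd68 was at 0.96 ± 0.20 and Adgre1 at 0.68 ± 0.10 (adjusted p = 0.113 and 0.0695).

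Endothelial markers had a median of 0.07, with summed signals of 3639 to 4300 against 3603 to 4387. Smooth muscle and pericyte markers had a median of -0.18, with 14078 to 15017 against 13848 to 17160. Of 9 neuron and Schwann cell markers, 2 were not analysed here, 4 lay below the filter (Snap25, Syt1, Elavl4 and S100b) and 3 were kept. The 3 had positive differences with a median of 0.34. Uchl1 separated the groups, with a difference of 0.78 ± 0.17 that did not pass (adjusted p = 0.119, limma), whereas Stmn2 and Prph overlapped between them. The summed signals, which include the 4 genes below the filter, were 252 to 341 against 199 to 238. The part of any of these cell types in the differences of the tubulins, Map4, Gas2l3 and Jpt1 was not tested.

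Genes whose profile over the 6 arrays was most like that of Gas2l3 and Jpt1 were sought by the root mean square difference between log2 profiles centred on their means, over 11015 other genes. For the brightest Gas2l3 probe set, 1437244_at, the nearest were Il16, Mmp2 and Id2, at 0.11, 0.12 and 0.13, where the median gene was at 0.43. In all, 39 genes lay within 0.2 of it. This is the Gas2l3 probe set whose groups overlapped, so these neighbours describe that probe set and not the other probe sets of Gas2l3. For the brightest Jpt1 probe set, 1416028_a_at, the nearest were Olfml3, Sorl1 and Arfgap3, at 0.07, 0.09 and 0.10, against a median of 0.54. Here 49 genes lay within 0.2. These distances include the difference between the groups and rest on 6 arrays.

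**Figure D5:**
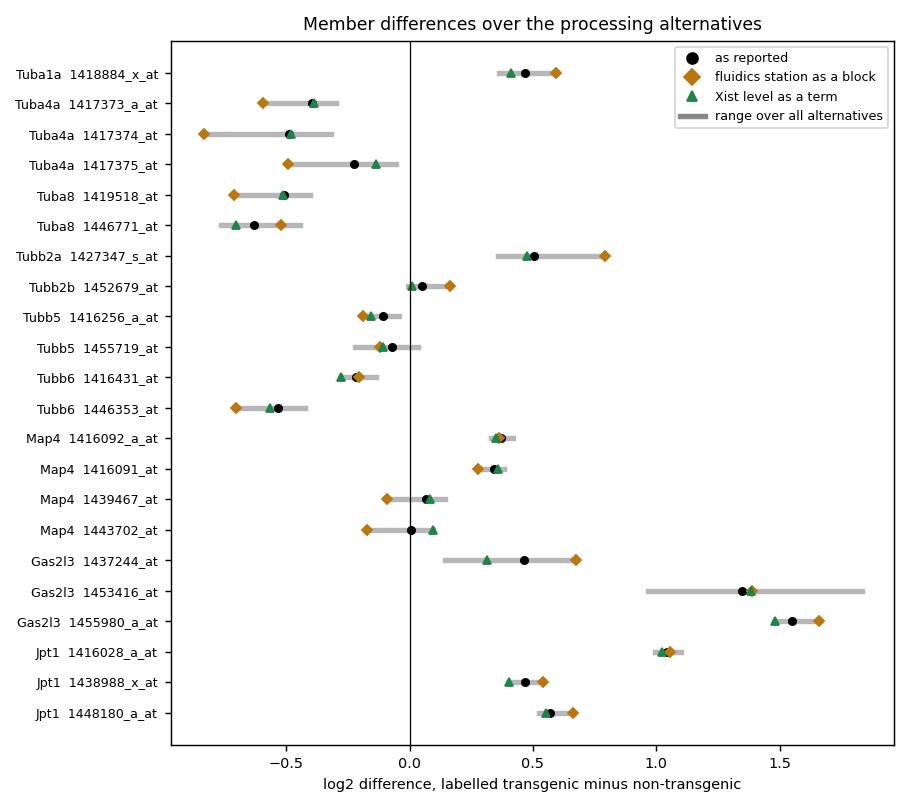
Log2 difference of each kept member probe set (y axis) as reported (black) and its range over the processing alternatives (grey bar), with the fluidics station as a block (ochre diamonds) and with Xist as a covariate (green triangles). The bars of 18 of 22 probe sets stay on 1 side of 0, and those of Tubb2b, 1 Tubb5 and 2 Map4 probe sets cross it.

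Averaging a gene's probe sets apart, over 16 alternatives, or 15 where a stricter filter left the probe set out, the difference kept its sign at 18 of the 22 kept member probe sets. Of the 16, 5 (both filters, the variance trend, the robust variance and the replicate block) cannot change a difference of group means. At 10 of the 22 probe sets the difference was over 1.5 times larger or smaller than reported in at least 1 alternative. The Jpt1 probe set 1416028_a_at ran from 0.99 to 1.10. The Gas2l3 probe set 1437244_at ran from 0.14 to 0.67. Averaging the kept probe sets of a gene gave 0.69 for Jpt1, where its brightest probe set gave 1.04. It gave 1.12 for Gas2l3 against 0.46, with the probe set whose lower group was under the filter included. It gave -0.37 for Tubb6 against -0.22 and 0.20 for Map4 against 0.37. Tuba1a ran from 0.36 to 0.59 and Tubb2a from 0.36 to 0.79, and the brightest Tuba4a and Tuba8 probe sets ran from -0.59 to -0.30 and from -0.71 to -0.41. The signs of Tubb2b, of Tubb5 on 1455719_at and of Map4 on 1439467_at and 1443702_at turned in at least 1 alternative.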

How the data were processed

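RNA was measured in heart tissue on 6 Affymetrix arrays, 3 a group, grouped and numbered by their titles. The authors deposited log2 values, made with GCRMA per the submitters' processing notes (version not given in the sources used here), and these were used unchanged. The fluidics station, the typed array name and the scan order came from the instrument's text records. Of 45101 probe sets, 64 controls were dropped. Names of genes are those of the 2016 platform annotation, checked against the RefSeq gene table of GRCm38.p6, where 34741 of 34945 probe sets with 1 gene matched by gene ID. Another 932 had several genes and 9160 none.

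Probe sets with a mean over the 6 arrays above the median, 3.29, were kept (22518). Differences were fitted in R 4.3.3 with limma 3.58.1 (a linear model and eBayes without a trend, 2-sided), adjusted by Benjamini-Hochberg over all kept probe sets, at a threshold of 0.05. This fit gives all adjusted p-values. A pathway gene stood by its brightest kept probe set. The fit was tested on simulated data. At most 0.0178% of values were exactly equal, as deposited without rounding, between any pair of arrays.

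The members and lists were chosen with earlier results of these data known. Named genes were all members, for each pathway list up to 4 passing genes or else the 2 largest differences, the 2 largest in marker lists that moved, and the 3 profiles nearest to Gas2l3 and to Jpt1. Alternatives covered the filter, normalization, variance model, array weights, blocks, averaging the probe sets of a gene and each array left out.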

Additional observations from a re-analysis of the deposited data

How the results depend on the processing

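The count of called probe sets depended on the processing. Against 49 probe sets called over all, there were 15 with no filter, 270 with a stricter filter on the mean, 108 with a variance trend, 2 with the fluidics station as a block and 0 with Xist as a covariate, an alternative chosen after seeing the data (3126 at an unadjusted p under 0.05 in limma). Leaving out each array in turn gave from 0 to 75, with 75 in the absence of labelled transgenic array 1, 5 in that of non-transgenic array 1 and 0 for each other array, and from 2532 to 3455 at an unadjusted p under 0.05. The replicate block gave 0 (3324 unadjusted). Deviations of same-numbered arrays correlated at -0.08, -0.17 and -0.01, and no labelled transgenic array correlated best with its own number, so the numbers were not taken as pairs.

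The 2 called member probe sets became 0 with the replicate block and with Xist as a covariate. At an unadjusted p under 0.05 in limma there were 13 and 14 of the 22, beside 3324 and 3126 of all 22518 probe sets kept. With single arrays left out the called member probe sets ranged from 0 to 3, with 3 only when labelled transgenic array 1 was left out and 0 for each of the other 5. At an unadjusted p under 0.05 in limma there were then 11 to 14 of the 22, beside 2532 to 3455 of all 22518. The genes were picked on this contrast, so nothing is read from these counts. No pathway gene was called under any alternative. At an unadjusted p under 0.05 in limma there were 25 of the 96 in the fit as reported, beside 18.2% of all genes kept. Over the alternatives there were 16 to 29. The 29 came with no filter, where more than these 96 genes were fitted, so the counts do not share 1 denominator. Probe sets near the filter, such as the non-transgenic values of Gas2l3, are limited by signal over background. The causes were not tested.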
